A study of Mus musculus with 8 samples.

Results

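The receptors for platelet-derived growth factor (PDGF) and fibroblast growth factor (FGF), a pair of FGF ligands and feedback inhibitors of the pathway were measured by RNA-Seq in NIH3T3, a line of mouse embryo fibroblasts in which Hedgehog (Hh) ligand turns on target genes. The 10 genes were Pdgfra, Pdgfrb, Fgfr1, Fgfr2, Fgf7, Fgf10, Spry1, Spry2, Spry4 and Dusp6, out of 20190 annotated genes with a value in all 8 samples. For each gene the assembled locus that best overlapped the annotated mm9 gene was taken, with at least 0.5 of their joint length shared (Jaccard index), and this index for the 10 genes was at least 0.966 in every sample. Control cells carried the empty pcDNA3.1 vector and received vehicle, and Hh-CM cells carried the same vector and received Hh conditioned medium. Esrrb cells carried a vector for Esrrb, the orphan nuclear receptor estrogen related receptor beta, and received vehicle, and Esrrb+Hh-CM cells carried that vector and received Hh-CM. Each condition had 2 samples. Hh-CM came from HEK293, a line of human embryonic kidney origin, with a Sonic Hedgehog (N-terminus) transgene, and vehicle was medium of HEK293 cells without it, both diluted 1:100. All cells were selected with 150 µg/ml zeocin, grown in 10% newborn calf serum, and treated for 48 h in phenol-red free medium with 5% serum. Both lines were stable pools from 2 transfections. The paper calls the 2 samples of a condition biological replicates, and does not state whether they came from separate transfections. The p-values therefore measure the spread between these samples, which may leave out that between transfections.

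PDGF and FGF receptors are receptor tyrosine kinases. When a ligand binds they dimerise, phosphorylate each other and recruit adaptors that switch on Ras and the ERK kinase cascade, and fibroblasts use them for growth and migration. The cascade also turns on its own brakes: Sprouty proteins hold back signalling between receptor and ERK, and Dusp6 is a phosphatase that removes phosphate from ERK. FGF7 and FGF10 are made by mesenchymal cells and act mostly on the epithelial splice form of FGFR2 in neighbouring cells.

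Upstream sequences of 7 of the 10 genes were matched by symbol in RefSeq (GRCm38.p6). The 250 bases before the annotated start are shown, 5′ to 3′ on the gene's strand, for Fgfr2, Spry1, Spry2 and Fgf7. In Hh-CM cells the values of Fgfr2 and Spry1 stood above Control, and Spry2 and Fgf7 were among the 8 members below it. The windows of Pdgfra, Fgf10 and Dusp6, also below Control, are not shown. Capitals mark AGGTCA, the half-site that nuclear receptors of the estrogen related family are known to bind.
Fgfr2: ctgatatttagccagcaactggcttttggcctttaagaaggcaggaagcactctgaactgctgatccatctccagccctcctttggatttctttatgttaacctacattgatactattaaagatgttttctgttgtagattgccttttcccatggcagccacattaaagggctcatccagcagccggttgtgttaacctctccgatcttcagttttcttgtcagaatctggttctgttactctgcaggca
Spry1: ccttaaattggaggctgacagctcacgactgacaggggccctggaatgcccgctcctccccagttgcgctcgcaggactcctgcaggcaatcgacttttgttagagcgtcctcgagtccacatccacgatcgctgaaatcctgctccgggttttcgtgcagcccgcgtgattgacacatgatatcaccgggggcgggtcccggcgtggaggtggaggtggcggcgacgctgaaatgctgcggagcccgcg
Spry2: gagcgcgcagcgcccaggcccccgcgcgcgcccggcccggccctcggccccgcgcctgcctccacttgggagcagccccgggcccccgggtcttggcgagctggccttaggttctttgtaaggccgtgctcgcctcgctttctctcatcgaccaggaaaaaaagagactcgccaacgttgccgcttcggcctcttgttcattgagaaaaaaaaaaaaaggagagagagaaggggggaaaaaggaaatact
Fgf7: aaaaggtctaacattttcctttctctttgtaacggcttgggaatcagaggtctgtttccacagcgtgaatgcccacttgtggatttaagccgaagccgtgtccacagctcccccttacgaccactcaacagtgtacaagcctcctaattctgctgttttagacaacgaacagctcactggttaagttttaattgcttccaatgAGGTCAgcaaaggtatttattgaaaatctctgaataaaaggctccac
These windows lay at chr7:130266809-130267058 on the minus strand for Fgfr2, chr3:37639697-37639946 on the plus strand for Spry1, chr14:105896820-105897069 on the minus strand for Spry2, and chr2:126034408-126034657 on the plus strand for Fgf7. The G+C content was 62.4% with 23 CpG in both Sprouty windows, 44.0% with 2 CpG at Fgfr2 and 43.6% with 6 CpG at Fgf7, against medians of 52.4% and 6 over 32851 promoter windows of the same length. The half-site in either orientation was found in 1 of the 7 windows, that of Fgf7, 47 bases before the start, and in 14.0% of all windows. The GLI motif GACCACCCA (0.225% of all windows), the longer ESRRB motif TCAAGGTCA (0.387%), which overlaps the half-site, and the ETS motif CCGGAAGT (2.88%) were in none of the 7 windows on either strand.

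Levels are given as FPKM, which scale fragments to transcript length and to the mapped fragments of a sample, so that genes can be compared per length. Pdgfra was the most abundant of the 10 with a mean of 333 FPKM over the 8 samples, above 98.1% of the 10278 genes tested. Fgfr1 (132 FPKM) and Fgf7 (132 FPKM) followed, then Pdgfrb (39.1 FPKM), Fgf10 (30.9 FPKM) and Fgfr2 (28.9 FPKM). The inhibitors were lower, with Spry2 at 15.3, Spry1 at 4.87, Dusp6 at 3.17 and Spry4 at 1.17 FPKM. A gene was tested if it reached 1 FPKM in at least 2 samples, which all 10 did, and Spry4 did so in its 4 vehicle samples and in none of the 4 with Hh-CM. Between the lowest and the highest sample the levels differed by 1.29-fold (Fgfr1) to 2.73-fold (Spry2).

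**Figure D1:**
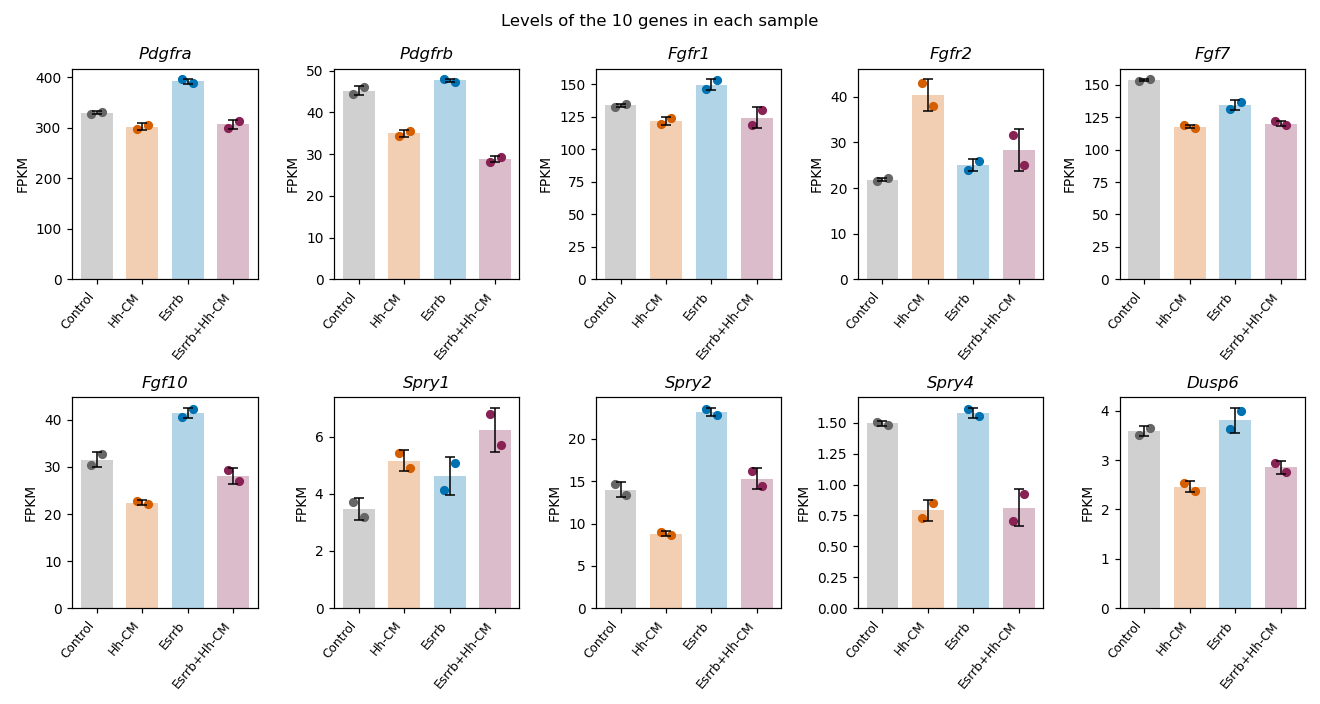
FPKM of the 10 genes in each sample (points), with the mean (bars) and SD (error bars) of the 2 samples of a condition. Fgfr2 is highest in Hh-CM cells at 43.0 and 38.0 FPKM, Spry2 is highest in Esrrb cells at 23.6 and 22.9 FPKM, and Spry4 is below 1 FPKM in the 4 samples that received Hh-CM.

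The Hedgehog response was present in both lines. Gli1, a transcription factor that Hh signaling induces, was at 0.0217 and 0.0308 FPKM in Control and 26.8 and 28.1 FPKM in Hh-CM cells, and at 0.106 and 0.0372 FPKM in Esrrb and 34.5 and 34.8 FPKM in Esrrb+Hh-CM cells. Ptch1, the Hh receptor, rose from 2.44 and 2.98 to 37.0 and 37.0 FPKM and from 3.08 and 2.76 to 43.9 and 47.7 FPKM. Hhip was listed at 0 in every sample. The Esrrb locus was listed at 0 in Control, Esrrb and Esrrb+Hh-CM samples and at 0.0281 and 0.0203 FPKM in Hh-CM samples, so that mRNA from the vector was not seen at this locus in the libraries labelled Esrrb or Esrrb+Hh-CM. By Western blot the paper reported raised Esrrb protein in the cells transfected with the Esrrb vector. Within these libraries the directions given for the vector rest on the labels. Of the markers, 6 of 7 for fibroblasts were measured and together reached 5107 to 6043 FPKM, the 4 epithelial markers stayed below 1 FPKM, and so did 3 of 4 endothelial, 3 of 4 leukocyte and 2 of 4 smooth muscle markers. Depth relative to Control 1 ranged from 0.742 in Esrrb+Hh-CM 2 to 1.54 in Hh-CM 2.

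Hh-CM against vehicle was compared within each line, to ask how the receptors, ligands and inhibitors respond to Hh ligand with and without the Esrrb vector. With the empty vector 6 of the 10 genes fell (Pdgfrb, Fgf7, Fgf10, Spry2, Spry4 and Dusp6) and Fgfr2 rose, at an adjusted p below 0.05 in limma on log2(FPKM + 0.1). Over all genes tested 7.54% passed as lower, 10.5% as higher and 18% in either direction. With the Esrrb vector 8 genes fell, the same 6 with Pdgfra and Fgfr1, and none rose, where 9.51% of all genes passed as lower, 13.9% as higher and 23.4% in either direction. Spry4, counted in both lines, reached 1 FPKM only in vehicle samples, so it entered the test only through the conditions where it was higher. No gene of the 10 also reached a log2 fold change of 1 in size, which 2.76% of all genes did in the first and 4.83% in the second comparison. The count of 8 fell to 4 without Esrrb 2 and with only the compared groups. All 10 passed an unadjusted p below 0.05 in the first comparison and 9 in the second, beside 32.1% and 35.6% of all genes.

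The comparisons in the separate lines share no samples. The sign of the difference was the same in both for 10 of the 10 genes and for 66.9% of all genes tested. The 6 genes lower past the adjusted p in both comparisons stand beside 4.91% of all genes. This count includes Spry4, which entered the test only through vehicle samples, where it was higher. The median log2 fold change of the 10 genes was -0.38 with either vector, against 0.04 over all genes tested in each comparison. In the same samples Acta2 and Tagln, contractile genes of smooth muscle and activated fibroblasts, summed to 460 and 457 FPKM in Control, 245 and 258 in Hh-CM, 253 and 255 in Esrrb and 145 and 143 in Esrrb+Hh-CM cells. The other smooth muscle markers listed, Myh11 and Cnn1, stayed below 1 FPKM and were not tested. Cnn1 did not fall in this order, at 0.0700 and 0.179 FPKM in Control, 0.378 and 0.250 in Hh-CM, 0.411 and 0.540 in Esrrb and 0.739 and 0.424 in Esrrb+Hh-CM cells. Thy1, a fibroblast surface marker, rose with Hh-CM from 88.0 and 87.3 to 385 and 410 FPKM (log2 fold change 2.18, adjusted p = 2.34e-05) and from 94.8 and 97.8 to 551 and 510 FPKM (2.46, adjusted p = 1.01e-05). In empty-vector cells no other measured fibroblast marker passed (Col1a1 0.20, Col1a2 0.11, Col3a1 0.095, Vim -0.01 and Fn1 0.29). In Esrrb-vector cells Fn1 rose (0.78, adjusted p = 0.0036), and Col1a1 (0.003), Col1a2 (-0.07), Col3a1 (0.09) and Vim (-0.04) did not pass. Tek, a receptor of endothelial cells, rose from 0.0702 and 0.108 to 1.06 and 1.24 FPKM with the empty vector (2.73, adjusted p = 0.00422). With the Esrrb vector it rose from 0.033 and 0.0289 to 1.11 and 1.51 FPKM (3.42, adjusted p = 0.00121). Tek reached 1 FPKM only in samples with Hh-CM, so it entered the test only through the conditions where it was higher. The other 3 endothelial markers stayed below 1 FPKM. The part of Acta2, Tagln, Thy1 and Tek in the differences was not tested. Less mRNA per cell and fewer cells with a transcript cannot be told apart in such bulk samples.

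**Figure D2:**
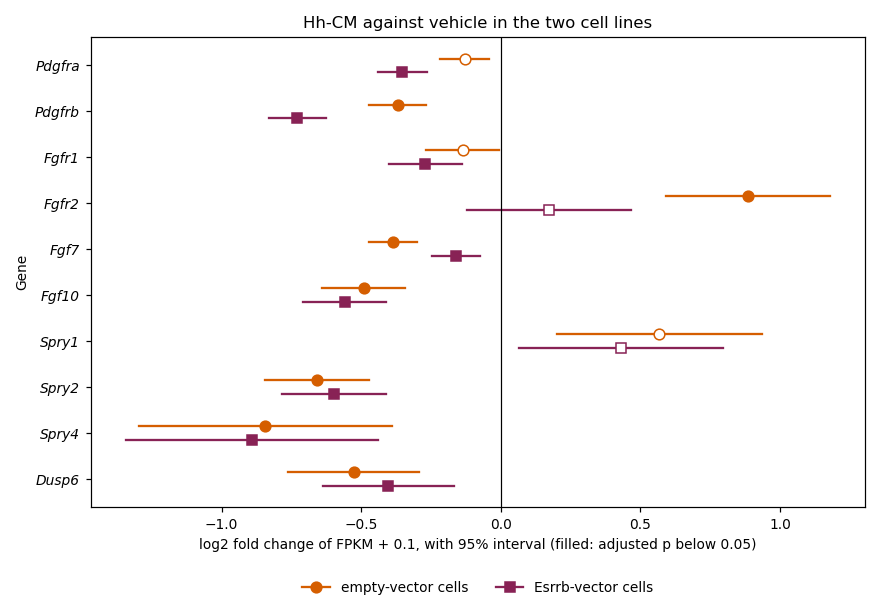
Log2 fold change of Hh-CM against vehicle for each gene, with 95% intervals, in empty-vector cells (circles) and Esrrb-vector cells (squares), filled where the adjusted p is below 0.05. Fgfr2 and Spry1 lie above 0 in both lines and the other 8 genes below it.

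Pdgfrb, the beta receptor that binds PDGF-B, was the receptor with the clearest decrease. It was at 44.4 and 46.0 FPKM in Control, 34.3 and 35.6 in Hh-CM, 48.0 and 47.4 in Esrrb, and 28.2 and 29.2 in Esrrb+Hh-CM cells. No neighbouring conditions in this order overlapped, and both Hh-CM conditions lay below both vehicle conditions. Hh-CM lowered it 1.29-fold with the empty vector (log2 fold change -0.37, SE 0.0412, adjusted p = 0.0029) and 1.66-fold with the Esrrb vector (-0.73, SE 0.0412, adjusted p = 0.000163), and both calls held under all alternatives.

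Pdgfra, the alpha receptor, which binds most PDGF dimers and is a surface marker of fibroblasts, was at 328 and 332 FPKM in Control, 297 and 307 in Hh-CM, 396 and 388 in Esrrb, and 301 and 314 in Esrrb+Hh-CM cells. The Hh-CM conditions overlapped each other and lay below the vehicle conditions. The difference in empty-vector cells was small, with a log2 fold change of -0.13 (SE 0.0355, adjusted p = 0.0576), and it passed with rescaled FPKM or without either Esrrb+Hh-CM sample (adjusted p between 0.03 and 0.225 over the alternatives). In Esrrb-vector cells Pdgfra fell 1.28-fold (-0.35, SE 0.0355, adjusted p = 0.00127).

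Fgfr1, the main FGF receptor of mesenchymal cells, moved in the same order. It was at 133 and 135 FPKM in Control, 119 and 124 in Hh-CM, 146 and 153 in Esrrb, and 118 and 130 in Esrrb+Hh-CM cells. Its log2 fold change was -0.14 in empty-vector cells (SE 0.0532, adjusted p = 0.143), and it fell 1.21-fold in Esrrb-vector cells (-0.27, SE 0.0532, adjusted p = 0.0164). The second call was lost without Esrrb 2 (-0.24, adjusted p = 0.0839), without the filter on low values and with only the compared groups.

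Fgfr2 stood apart from the other receptors. It was at 21.6 and 22.1 FPKM in Control, 43.0 and 38.0 in Hh-CM, 24.0 and 25.9 in Esrrb, and 31.6 and 25.1 in Esrrb+Hh-CM cells. Both Hh-CM samples lay above all others, and the Esrrb and Esrrb+Hh-CM conditions overlapped. It rose 1.85-fold with the empty vector (0.89, SE 0.119, adjusted p = 0.00574), a call kept under all alternatives. With the Esrrb vector the log2 fold change was 0.17 (95% interval -0.12 to 0.47, adjusted p = 0.36). FPKM per gene does not separate the splice forms of Fgfr1 and Fgfr2 that differ in ligand binding.

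Both FGF ligands fell in both lines. Fgf7, also known as keratinocyte growth factor, was at 153 and 155 FPKM in Control, 119 and 117 in Hh-CM, 132 and 137 in Esrrb, and 122 and 119 in Esrrb+Hh-CM cells. Control stood highest, and the Hh-CM conditions overlapped at the bottom. The decrease was 1.31-fold with the empty vector (-0.39, SE 0.0345, adjusted p = 0.00137) and 1.12-fold with the Esrrb vector (-0.16, SE 0.0345, adjusted p = 0.0223). The smaller one was lost without Esrrb 2 or Esrrb+Hh-CM 2, with only the compared groups and without the variance trend (adjusted p up to 0.107). The annotated gene 4930525F21Rik spans Fgf7 on the opposite strand, and its own locus was listed at 0.

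Fgf10, a ligand that mesenchyme uses in lung and limb development, was at 30.4 and 32.7 FPKM in Control, 22.7 and 22.1 in Hh-CM, 40.7 and 42.3 in Esrrb, and 29.3 and 27.0 in Esrrb+Hh-CM cells. No 2 conditions overlapped. It fell 1.41-fold with the empty vector (-0.49, SE 0.0604, adjusted p = 0.00414) and 1.47-fold with the Esrrb vector (-0.56, SE 0.0604, adjusted p = 0.0017), under all alternatives. Between 1 and 4 further small loci lay inside Fgf10 in each sample, with 1.79 to 9.23 FPKM each, and were not added to it. Gm16159 overlaps Fgfr1, and Gm16263 overlaps Fgf10, on the opposite strand, and whether the assembly used strand is not given in the sources used here.

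Among the inhibitors, Spry2, Spry4 and Dusp6 fell with Hh-CM in both lines. Spry2 was at 14.7 and 13.4 FPKM in Control, 9.01 and 8.65 in Hh-CM, 23.6 and 22.9 in Esrrb, and 16.2 and 14.5 in Esrrb+Hh-CM cells. It fell 1.58-fold with the empty vector (-0.66, SE 0.0756, adjusted p = 0.00321) and 1.51-fold with the Esrrb vector (-0.60, SE 0.0756, adjusted p = 0.00307), under all alternatives. Each line's Hh-CM samples lay below its vehicle samples, while Control and Esrrb+Hh-CM overlapped.

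Spry4 was at 1.51 and 1.48 FPKM in Control, 0.731 and 0.851 in Hh-CM, 1.61 and 1.55 in Esrrb, and 0.706 and 0.920 in Esrrb+Hh-CM cells. The 4 samples with Hh-CM were all below the 4 with vehicle, and the interval deposited with Control 1 was 1.21 to 1.80 FPKM and that with Hh-CM 1 was 0.539 to 0.919 FPKM. The decrease was 1.79-fold (-0.84, SE 0.184, adjusted p = 0.029) and 1.85-fold (-0.89, SE 0.184, adjusted p = 0.0193). The first call was lost without either Control, Hh-CM or Esrrb sample (log2 fold change -0.94 to -0.75, adjusted p up to 0.122) and without the filter. The second was lost without either Esrrb sample or Esrrb+Hh-CM 1 (adjusted p up to 0.083), without the filter and with only the compared groups, and without Esrrb+Hh-CM 2 its log2 fold change of -1.06 (adjusted p = 0.0223) passed both thresholds.

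Dusp6, whose transcript is widely read as a sign of ERK activity, was at 3.52 and 3.65 FPKM in Control, 2.54 and 2.38 in Hh-CM, 3.62 and 3.99 in Esrrb, and 2.95 and 2.76 in Esrrb+Hh-CM cells. The vehicle conditions overlapped and both lay above the Hh-CM conditions. It fell 1.44-fold with the empty vector (-0.53, SE 0.095, adjusted p = 0.0157) and 1.32-fold with the Esrrb vector (-0.40, SE 0.095, adjusted p = 0.0303). The first call was lost without either Control or either Hh-CM sample (adjusted p up to 0.081), and the second without any 1 of the 8 samples, with the replicate block and with only the compared groups (adjusted p up to 0.13).

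Spry1 went the other way from its relatives in value. It was at 3.73 and 3.19 FPKM in Control, 5.43 and 4.89 in Hh-CM, 4.14 and 5.08 in Esrrb, and 6.79 and 5.69 in Esrrb+Hh-CM cells. In each line the Hh-CM samples were higher without overlap. The log2 fold changes were 0.57 (SE 0.149, adjusted p = 0.0508) and 0.43 (SE 0.149, adjusted p = 0.0943) and did not pass. The first passed with 1 FPKM required in every sample or with an overlap of at least 0.8 (adjusted p between 0.0442 and 0.2 over the alternatives).

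The Esrrb vector was compared with the empty vector under each treatment. With vehicle, Pdgfra, Fgf10 and Spry2 were higher and Fgf7 lower in the libraries labelled Esrrb, 4 of the 10 genes, beside 16.4% of all genes in either direction, 10.3% higher and 6.17% lower. With Hh-CM, Fgf10 and Spry2 were higher and Pdgfrb and Fgfr2 lower in the libraries labelled Esrrb+Hh-CM, again 4 of the 10, beside 19% of all genes, 12.5% higher and 6.54% lower. None passed both thresholds, which 1.48% and 1.98% of all genes did. The first count fell to 1 without Control 1 and to 2 without Esrrb 1, and the second to 2 without either Hh-CM sample and to 1 with only the compared groups. In unadjusted p below 0.05 the counts were 6 and 4, beside 32.5% and 34.9% of all genes. The signs of these comparisons, which share no samples, were the same for 7 of the 10 genes and for 68.5% of all genes, and the 2 genes higher past the adjusted p in both stand beside 5.22% of all genes.

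**Figure D3:**
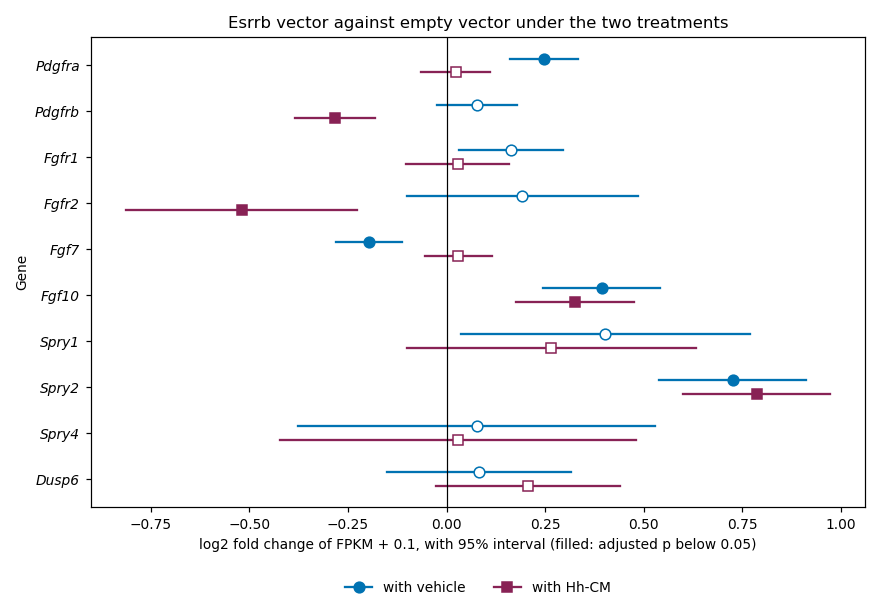
Log2 fold change of the Esrrb vector against the empty vector for each gene, with 95% intervals, with vehicle (circles) and with Hh-CM (squares), filled where the adjusted p is below 0.05. Spry2 lies at 0.73 and 0.79, and Fgfr2 at 0.19 and -0.52.

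Spry2 had the largest difference of the 10 genes with the vector. It was 1.65-fold higher with vehicle (0.73, SE 0.0756, adjusted p = 0.00342) and 1.73-fold higher with Hh-CM (0.79, SE 0.0756, adjusted p = 0.00264), and both calls held under all alternatives. Fgf10 was 1.31-fold higher with vehicle (0.39, SE 0.0604, adjusted p = 0.0117) and 1.25-fold higher with Hh-CM (0.33, SE 0.0604, adjusted p = 0.0181). The first Fgf10 call was lost without Control 1 or Esrrb 2 (adjusted p up to 0.0625), and the second without either Hh-CM sample or Esrrb+Hh-CM 1 and with only the compared groups (adjusted p up to 0.0834).

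The receptors differed among themselves in this comparison. Pdgfra was 1.19-fold higher with vehicle (0.25, SE 0.0355, adjusted p = 0.00945), a call lost without Control 1 or Esrrb 1 (adjusted p up to 0.0584), and with Hh-CM its log2 fold change was 0.02 (95% interval -0.06 to 0.11). Pdgfrb had a log2 fold change of 0.08 with vehicle (adjusted p = 0.262) and was 1.22-fold lower with Hh-CM (-0.28, SE 0.0412, adjusted p = 0.00905), which was lost with only the compared groups (adjusted p = 0.0533). Fgfr2 had a log2 fold change of 0.19 with vehicle (adjusted p = 0.326) and was 1.43-fold lower with Hh-CM (-0.52, SE 0.119, adjusted p = 0.0335). Without any 1 sample other than Esrrb+Hh-CM 1 the Fgfr2 call was lost (log2 fold change -0.35 without Esrrb+Hh-CM 2 and -0.43 without Hh-CM 1, where the adjusted p was highest at 0.154), as it was without the filter and with only the compared groups. Fgfr1 passed in neither, with log2 fold changes of 0.16 (adjusted p = 0.092) and 0.03 (adjusted p = 0.747).

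Fgf7 was 1.15-fold lower with vehicle (-0.20, SE 0.0345, adjusted p = 0.0178), which was lost without either Control sample or Esrrb 1 and with only the compared groups (adjusted p up to 0.0845). With Hh-CM its log2 fold change was 0.03 (95% interval -0.06 to 0.11). Spry1, Spry4 and Dusp6 passed in neither, with log2 fold changes of 0.40, 0.08 and 0.08 with vehicle and 0.27, 0.03 and 0.21 with Hh-CM.

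Esrrb+Hh-CM cells were also set against Control cells, which differ from them in both vector and medium. Pdgfrb, Fgf7, Spry4 and Dusp6 fell and Spry1 rose, 5 of the 10 genes beside 35% of all genes, 23% higher and 12% lower, and none passed both thresholds, which 6.22% of all genes did. Of these, Spry4 entered the test only through vehicle samples. Pdgfrb was 1.57-fold lower (-0.65, SE 0.0412, adjusted p = 0.000176) and Fgf7 1.28-fold lower (-0.36, SE 0.0345, adjusted p = 0.000839). Spry1 was 1.78-fold higher (0.83, SE 0.149, adjusted p = 0.00832), the one pairwise comparison in which it passed, and it did so under all alternatives. Spry4 was 1.76-fold lower (-0.81, SE 0.184, adjusted p = 0.019), a call lost without either Control sample or Esrrb+Hh-CM 1 (adjusted p up to 0.0816). Dusp6 was 1.25-fold lower (-0.32, SE 0.095, adjusted p = 0.0458), a call lost without any 1 of the 8 samples (adjusted p up to 0.166), without the filter, with the replicate block and with only the compared groups. The count fell to 3 without either Control sample or Esrrb+Hh-CM 1.

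Spry2 and Fgf10 lay near Control in Esrrb+Hh-CM cells. The log2 fold change of Spry2 was 0.13 (95% interval -0.06 to 0.31, adjusted p = 0.245) and that of Fgf10 was -0.16 (95% interval -0.31 to -0.02, adjusted p = 0.0848). With FPKM rescaled to a common median 8 of the 10 genes passed, with Pdgfra, Fgfr1 and Fgf10 added as lower. Fgfr2 had a log2 fold change of 0.37 (adjusted p = 0.061) and passed without Esrrb+Hh-CM 2 (0.53, adjusted p = 0.016).

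Whether the Hh-CM response differed between the lines was tested by the interaction, the response with the Esrrb vector minus that with the empty vector. By limma 0 of the 10 genes passed, beside 1.35% of all genes, and 4 had an unadjusted p below 0.05 (Pdgfra, Pdgfrb, Fgfr2 and Fgf7), beside 18% of all genes. The difference for Fgfr2 was -0.71 on the log2 scale (95% interval -1.13 to -0.30, adjusted p = 0.11), and that for Pdgfrb was -0.36 (95% interval -0.50 to -0.22, adjusted p = 0.0549). Pdgfrb passed with rescaled FPKM (adjusted p = 0.0476, the lowest over the alternatives). Pdgfra was at -0.22 (95% interval -0.35 to -0.10, adjusted p = 0.0979) and Fgf7 at 0.23 (95% interval 0.11 to 0.35, adjusted p = 0.0899). The Sprouty genes gave -0.14, 0.06 and -0.05 for Spry1, Spry2 and Spry4, with the interval of Spry2 from -0.20 to 0.32 and that of Spry4 from -0.69 to 0.59.

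Ratios within a sample show how related genes moved against each other, and no test was run on them. Fgfr1 over Fgfr2 was 6.15 and 6.09 in Control, 2.78 and 3.26 in Hh-CM, 6.09 and 5.90 in Esrrb, and 3.75 and 5.17 in Esrrb+Hh-CM cells. The Hh-CM samples lay below all vehicle samples in both lines. Pdgfra over Pdgfrb was 7.40 and 7.22 in Control, 8.66 and 8.61 in Hh-CM, 8.26 and 8.19 in Esrrb, and 10.7 and 10.7 in Esrrb+Hh-CM cells, and no 2 conditions overlapped. Fgf7 over Fgf10 was 5.03 and 4.73 in Control, 5.22 and 5.28 in Hh-CM, 3.24 and 3.24 in Esrrb, and 4.15 and 4.40 in Esrrb+Hh-CM cells, lowest in Esrrb cells. Spry2 over Spry1 was 3.93 and 4.19 in Control, 1.66 and 1.77 in Hh-CM, 5.69 and 4.50 in Esrrb, and 2.38 and 2.54 in Esrrb+Hh-CM cells, so that Spry2 was the more abundant of the pair in every sample and least so with Hh-CM.

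**Figure D4:**
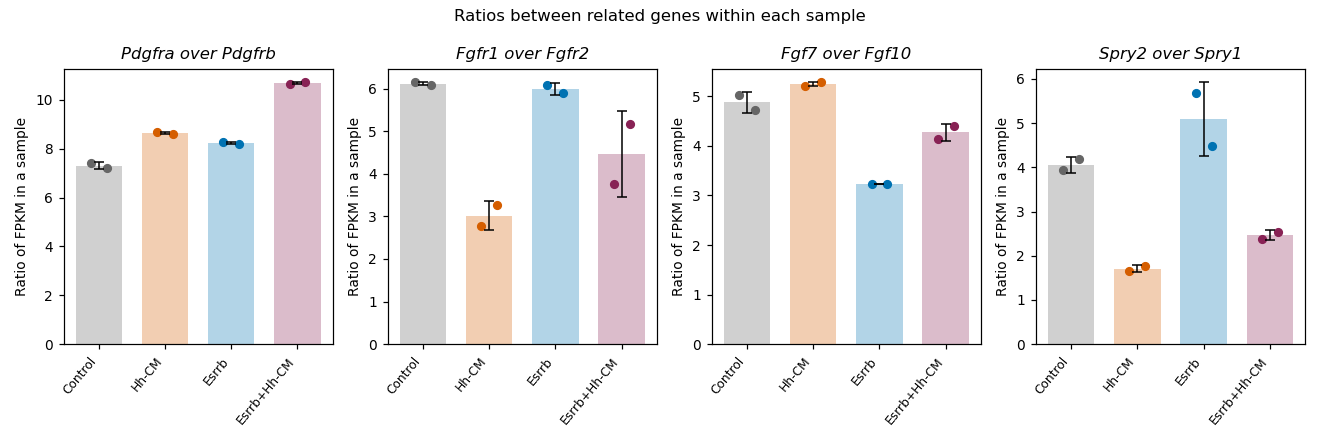
Ratio of FPKM of 2 related genes within each sample (points), with the mean (bars) and SD (error bars) of a condition. Fgfr1 over Fgfr2 is lowest in Hh-CM cells at 2.78 and 3.26, and Pdgfra over Pdgfrb is highest in Esrrb+Hh-CM cells at 10.7 in both samples.

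Of 70 other genes of the pathway, listed by role, 69 had a value in all samples and 53 were tested. With Hh-CM 7 rose and 9 fell in empty-vector cells, and 5 rose and 10 fell in Esrrb-vector cells, where 10.5% and 7.54% of all genes tested, and 13.9% and 9.51%, passed as higher and lower. With the Esrrb vector 11 were higher and 7 lower under vehicle, and 6 higher and 6 lower under Hh-CM, where 10.3% and 6.17% of all genes, and 12.5% and 6.54%, passed. The interaction called 0 of the 53 by limma.

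Among the PDGF ligands, Pdgfc, which signals through the alpha receptor, was at 11.4 and 10.6 FPKM in Control, 46.9 and 40.0 in Hh-CM, 10.6 and 11.0 in Esrrb, and 46.8 and 43.9 in Esrrb+Hh-CM cells. It passed both thresholds in both lines, with log2 fold changes of 1.97 (adjusted p = 0.00013) and 2.06 (adjusted p = 6.4e-05). Pdgfa passed in no comparison, and Pdgfb and Pdgfd were at most at 0.193 FPKM. None of the 8 other FGF ligands listed was tested, the highest value being 1.14 FPKM. The list did not hold every FGF ligand, and Fgf23, which the paper called as raised by Hh-CM in empty-vector cells, was not on it. Fgfr3, Fgfr4, Kl and Klb were at most at 0.0998 FPKM. Of Fgfr1 to Fgfr4, Fgfr1 and Fgfr2 were therefore those detected above that level. Fgfrl1, listed with these receptors, was at 22.8 and 23.7 FPKM in Control cells. By limma it passed only for the Esrrb vector under vehicle, as lower (-0.31, adjusted p = 0.0303).

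Of the heparan sulphate co-receptors, which hold FGF at the cell surface, 7 were tested, and Sdc2, Sdc4 and Gpc6 fell and Gpc1 rose with Hh-CM in both lines. Gpc6 passed both thresholds in Esrrb-vector cells, from 27.3 and 25.9 to 11.4 and 11.9 FPKM (-1.19, adjusted p = 5.3e-05). Among 22 adaptors and Ras-ERK kinases, Pik3r1 rose and Shc1 fell in both lines, and Frs2, the docking protein of FGF receptors, fell in Esrrb-vector cells.

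Of 10 other feedback inhibitors tested, Dusp4, a nuclear ERK phosphatase, fell past both thresholds in both lines. Like Spry4, Dusp4 reached 1 FPKM only in the vehicle samples, so it entered the test only through the conditions where it was higher. It was at 2.04 and 2.04 FPKM in Control, 0.632 and 0.780 in Hh-CM, 2.92 and 1.59 in Esrrb, and 0.356 and 0.416 in Esrrb+Hh-CM cells (log2 fold changes -1.41, adjusted p = 0.0267, and -2.22, adjusted p = 0.004). Errfi1, an inhibitor of the EGF receptor family, also fell in both, and Il17rd, a membrane inhibitor of FGF signalling, rose in both. Of 11 ERK target genes Ier3 fell in both lines, and Myc fell and Phlda1 and Ccnd1 rose in empty-vector cells. Fos fell past both thresholds in Esrrb-vector cells, from 1.05 and 1.05 to 0.523 and 0.311 FPKM (-1.19, adjusted p = 0.0309). However, Fos reached 1 FPKM only in the Esrrb samples, so it entered the test only through the condition where it was highest. Fosl1 was listed at 0 in 5 samples and Frs3 in 1, and neither passed.

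**Figure D5:**
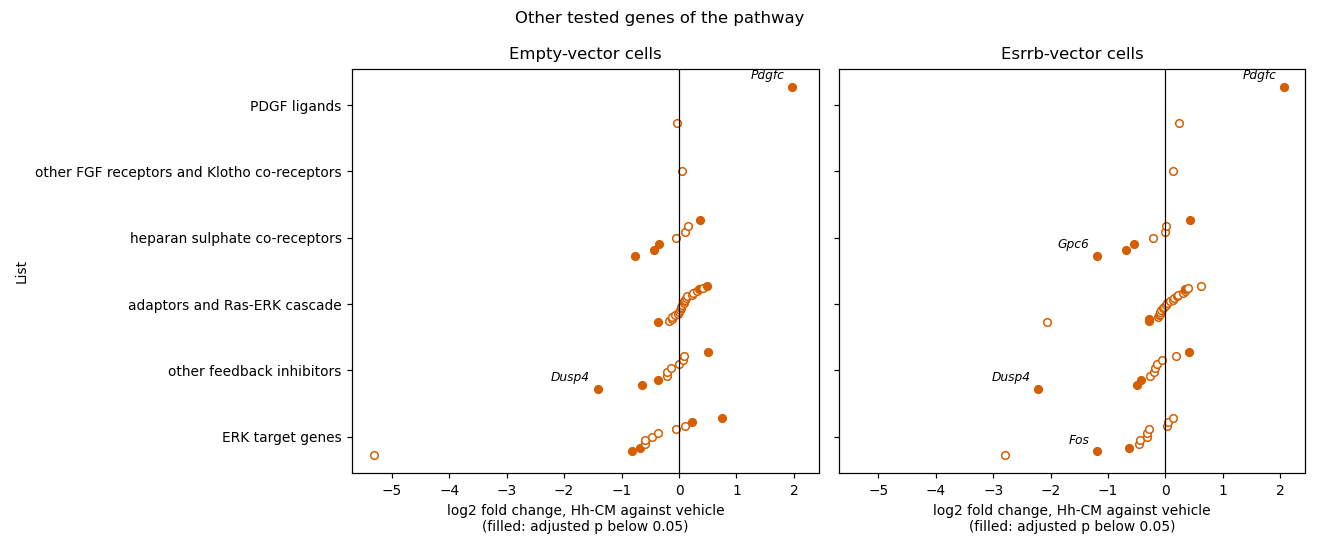
Log2 fold change of Hh-CM against vehicle for the 53 other tested genes (points), grouped by role list, in empty-vector cells (left) and Esrrb-vector cells (right), filled where the adjusted p is below 0.05 and named where the change is also at least 1 in size. Pdgfc lies at 1.97 and 2.06 and Dusp4 at -1.41 and -2.22, and the open points furthest to the left are Fosl1 (both plots) and Frs3 (right), which are listed at 0 in some samples.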

How the data were processed

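The authors sequenced poly(A) mRNA in 1 HiSeq lane with a stranded library kit, trimmed reads with FASTX-Toolkit, mapped reads with TopHat2 and Bowtie2 (mm9), and ran the reference-guided assembly of Cufflinks on each sample. The deposited gene tables hold FPKM with an interval per locus (the paper writes RPKM), and read counts were not used here. In 7 of 80 values of the 10 genes the deposited FPKM lay outside its own interval (5 of Pdgfra and 2 of Fgf7).

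Loci were matched by position to GENCODE genes on the same build, since numbered identifiers differ between samples. Genes with at least 1 FPKM in at least 2 samples (10278) were fitted in limma 3.58.1 (R 4.3.3) on log2(FPKM + 0.1), with a mean per condition over all 8 samples, a variance trend and Benjamini-Hochberg adjustment. Fold changes are on that scale, which understates the change of low genes. The fit was tested on simulated data. Calls used an adjusted p below 0.05, alone or together with an absolute log2 fold change of 1 or more. Deviations of samples with the same replicate number had correlations between -0.0389 and 0.0715 across conditions. This does not show whether such samples shared an origin, and the main fit did not pair them.

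The genes and lists were chosen with earlier results of these data known. All 10 genes were named, other pathway genes by count and, where past both thresholds in a comparison of 1 factor, with values; further names were given after their values were seen. Alternatives were other pseudocounts (1 and 0.001), low-value filters, the replicate block, only the compared groups, rescaled FPKM, no variance trend, summed loci, an overlap of at least 0.8 and each sample left out. Depth was read from the steps of low FPKM values, and no interval from counts was made. The rest was done in Python 3.11.15 with pandas 2.3.3, numpy 2.4.6 and, for plots, matplotlib 3.10.9.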

Additional observations from a re-analysis of the deposited data

How the results depend on the processing

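Of 28 calls of the 10 genes over the 6 comparisons, 14 were kept under every alternative run, 14 were lost under at least 1, and no called value changed sign. Of 32 values not called, 8 passed under at least 1 alternative. With Control against Hh-CM, 6 to 8 genes passed the adjusted p under the alternatives that left out no single sample, against 7. Leaving out 1 sample also moved this count. With Control against Esrrb, leaving out 1 sample gave between 1 (without Control 1) and 5 genes past the adjusted p, against 4. With Control against Esrrb+Hh-CM it gave 3 (without either Control sample or Esrrb+Hh-CM 1) to 6, against 5, and rescaled FPKM gave 8. With Hh-CM against Esrrb+Hh-CM it gave 2 to 3, against 4, and only the compared groups gave 1. With Esrrb against Esrrb+Hh-CM it gave 4 (without Esrrb 2) to 7, against 8, only the compared groups gave 4, and leaving out samples gave 0 to 1 genes past both thresholds, against 0. The interaction gave 1 gene with rescaled FPKM, against 0. The causes were not tested, beyond the fewer samples of some fits. In Hh-CM against Esrrb+Hh-CM, values not called turned sign with rescaled FPKM (Pdgfra -0.0248, Fgfr1 -0.0198, Fgf7 -0.0186, Spry4 -0.0133) or with 1 sample left out, which gave -0.00667 to 0.0541 for Pdgfra, -0.0374 to 0.0947 for Fgfr1 and -0.14 to 0.20 for Spry4. In the interaction leaving out 1 sample gave -0.28 to 0.00698 for Spry1, -0.0193 to 0.14 for Spry2 and -0.22 to 0.12 for Spry4. With the replicate block 7, 4, 4, 4 and 7 genes passed in Control against Hh-CM, Control against Esrrb, Control against Esrrb+Hh-CM, Hh-CM against Esrrb+Hh-CM and Esrrb against Esrrb+Hh-CM, and 0 in the interaction; 2 calls, both of Dusp6, were lost. Whether the numbers pair the samples is not stated. Depth is known only relative to Control 1.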
